A study of Homo sapiens with 14 samples.

Results

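ADAM9, ADAM10, ADAM15, ADAM17, ADAM19, MMP1, MMP2, MMP14, TIMP1 and TIMP2 encode membrane-anchored ADAM proteases, matrix metalloproteases (MMPs) and tissue inhibitors of metalloproteases (TIMPs). They were taken by gene symbol, and all 10 were listed in both of the authors' deposited tables, out of 12202 genes listed in at least 1 of them. ADAM19 was chosen by its measured values, because these moved in opposite directions in the 2 comparisons. Its values are therefore a description with no test, and counts of tested members refer to the other 9. RNA was measured in 14 libraries of teloHAEC, a single line of immortalised human aortic endothelial cells, grown in vascular basal medium with a VEGF-containing endothelial supplement, penicillin and streptomycin. In the siRNA arm, cells were reverse transfected, by Lipofectamine RNAiMAX, with Silencer Select siRNA against CALCRL (4 libraries) or with scrambled siRNA (4 libraries), and were lysed after 24 hours. In the deletion arm, cells were electroporated in the Neon system with HiFi Cas9, tracrRNA and crRNAs flanking an enhancer of CALCRL (3 libraries) or with a crRNA against HPRT (3 libraries), and were collected after 2 days. Treated and control cells of an arm thus shared the delivery, and the deletion controls also received active Cas9 complexes. The labels describe no cloning of edited cells, and the share of edited alleles is not given in the sources used here. Libraries were made with the QuantSeq 3' mRNA-seq FWD kit, which captures the region next to the poly(A) tail, and were read from 1 end for 86 cycles.

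ADAM proteases are made as inactive precursors that proprotein convertases such as furin cut on the way to the cell surface. There several of them release the outer part of receptors, adhesion molecules and growth factors, a step called shedding. ADAM10 and ADAM17 are the main sheddases of endothelial cells: ADAM10 cuts VE-cadherin and Notch receptors, and ADAM17 releases tumour necrosis factor and its receptors. MMPs cut the extracellular matrix, and TIMPs block the active site of MMPs and, in part, of ADAMs. CALCRL is a receptor that, together with an accessory protein, binds adrenomedullin and calcitonin gene-related peptide.

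Promoters are shown for 3 members on which the comparisons below turn: ADAM10, which fell after deletion of the enhancer, ADAM19, the gene chosen by its values, and TIMP1, which differed between the arms in the other direction. Each is the 250 bases before to 50 bases after the gene's start in RefSeq on GRCh38.p14, written 5′ to 3′ on the gene's own strand, with the letters GGGCGG of a GC box (CCGCCC on the other strand) in capitals. The ADAM10 window is chr15:58749658-58749957 (minus strand), the ADAM19 window chr5:157575726-157576025 (minus strand) and the TIMP1 window chrX:47582186-47582485 (plus strand).
ADAM10: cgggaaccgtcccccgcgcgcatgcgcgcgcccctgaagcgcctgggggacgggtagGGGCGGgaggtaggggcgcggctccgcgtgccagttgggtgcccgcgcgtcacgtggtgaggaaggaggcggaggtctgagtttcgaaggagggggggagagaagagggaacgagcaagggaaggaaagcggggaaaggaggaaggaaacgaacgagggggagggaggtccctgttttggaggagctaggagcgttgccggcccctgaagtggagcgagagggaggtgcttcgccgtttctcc
ADAM19: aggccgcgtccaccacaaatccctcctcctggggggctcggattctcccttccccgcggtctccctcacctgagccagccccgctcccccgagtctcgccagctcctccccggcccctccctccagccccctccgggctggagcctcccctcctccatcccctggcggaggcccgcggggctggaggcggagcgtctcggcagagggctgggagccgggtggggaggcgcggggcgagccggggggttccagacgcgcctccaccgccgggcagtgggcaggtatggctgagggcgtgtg
TIMP1: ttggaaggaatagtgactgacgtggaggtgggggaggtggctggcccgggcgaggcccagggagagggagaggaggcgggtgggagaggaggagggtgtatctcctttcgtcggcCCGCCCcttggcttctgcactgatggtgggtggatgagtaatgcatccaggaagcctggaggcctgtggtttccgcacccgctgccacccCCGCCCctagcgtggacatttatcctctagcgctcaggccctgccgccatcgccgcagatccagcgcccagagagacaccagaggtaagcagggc
GC boxes numbered 1 in the ADAM10 window, 0 in that of ADAM19 and 2 in that of TIMP1, and 45.0% of 35116 RefSeq promoters of this length held at least 1. The GC content was 68.0% for ADAM10, 75.7% for ADAM19 and 65.0% for TIMP1, against a median of 58.7% over all promoters. RefSeq promoters were matched for 6 of the 10 members. The others were ADAM15 with 79.3% GC and 6 GC boxes, ADAM17 with 74.7% and 3, and MMP14 with 55.0% and 1. None of the 6 windows held the letters TGACTCA or TGAGTCA of an AP-1 site (held by 4.95% of all promoters), TGACGTCA of a cyclic AMP response element (1.85%), or GAANNTTC or TTCNNGAA of a heat shock element (13.5%), searched on both strands. Only exact matches to these letters were counted, so sites with other letters could be present. ADAM9, MMP1, MMP2 and TIMP2 were not matched.

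A second pair of sequences comes from the 3' UTR. An earlier analysis of these data had found the 7-base word GTAACAA in the 3' UTR of many genes that were lower under siRNA, and it was looked up in the members, where it was present in ADAM10 and MMP2. The sites are shown from GENCODE 29 with the word in capitals.
ADAM10 site: ggggcatgtaaGTAACAActcctgatagg
MMP2 site: aacaatgaacaGTAACAAtaatatccccc
The word lay 8670 bases into the 8740 bases of the ADAM10 3' UTR and 1116 bases into the 1249 bases of that of MMP2. It was present in 1159 of 10905 genes with an annotated 3' UTR (10.6%). Neither gene was called under siRNA: the authors' deposited table gave a log2 fold change of -0.05 for ADAM10 and 0.05 for MMP2.

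Each of the authors' deposited tables holds 1 mean normalised count, 1 log2 fold change of treated against control with its standard error (SE), and 1 p-value per gene, and no value for a single library. Levels in single samples, overlap between groups and the depth of each library can therefore not be given. The group means below were derived from the mean count and the fold change and have no spread of their own, and counts are on a separate scale in each arm. Called means an adjusted p-value under 0.05 in the authors' DESeq2 Wald test, with adjustment over all genes of the table. The labels do not say that replicates were separate cultures, so p-values measure only the spread between these samples. In bulk RNA, fewer cells of a type and less RNA per cell cannot be told apart. CALCRL itself, the check of the labels, was at 34.0% of control under siRNA (95% interval 27.1% to 42.7%) and at 36.2% after deletion (20.2% to 64.7%) in the authors' deposited tables. The median SE of all genes there was 0.17 under siRNA and 0.41 after deletion. Of the endothelial markers 9 of 10 were listed, and PECAM1 was listed for neither arm. VWF was listed with a mean count of only 42.0 under siRNA and 18.7 after deletion. Of 9 smooth muscle and fibroblast markers only ACTA2 and TAGLN were listed, and of 8 leukocyte and epithelial markers only KRT18, KRT19 and CD68. The highest endothelial means were 1873 (siRNA) and 1204 (deletion). Those of KRT18 (2187 and 2985) and KRT19 (1996 and 2430) were higher. The labelled cell type was thus not tested by these listings.

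Under siRNA, none of the 9 tested members was called, and 1 of them, TIMP1, had an unadjusted p-value under 0.05 in the DESeq2 Wald test of the authors' deposited table. Of all genes there, 1354 of 11261 had one. In the whole siRNA set 3.46% of 11261 genes were called, 1.05% as higher and 2.42% as lower. The 9 log2 fold changes ran from -0.26 for TIMP1 to 0.21 for MMP14. Their median size, without regard to sign, was 0.05, and that of all genes was 0.14, or 0.10 for the 3412 genes whose mean count lay in the members' range. After deletion, 2 of the 9 were called, both lower: ADAM9 and ADAM10. An unadjusted p-value under 0.05 was found for 5 of the 9, and for 3513 of the 11830 genes of that arm. Over all genes of that arm, 15.8% of 11830 were called, 7.40% as higher and 8.44% as lower. The fold changes of the 9 ran from -1.20 for ADAM10 to 1.05 for ADAM15, with a median size of 0.77. All genes had a median size of 0.55, and the 3609 genes in the members' range of mean counts one of 0.45. The fold changes of all 10 genes are plotted with their intervals.

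**Figure D1:**
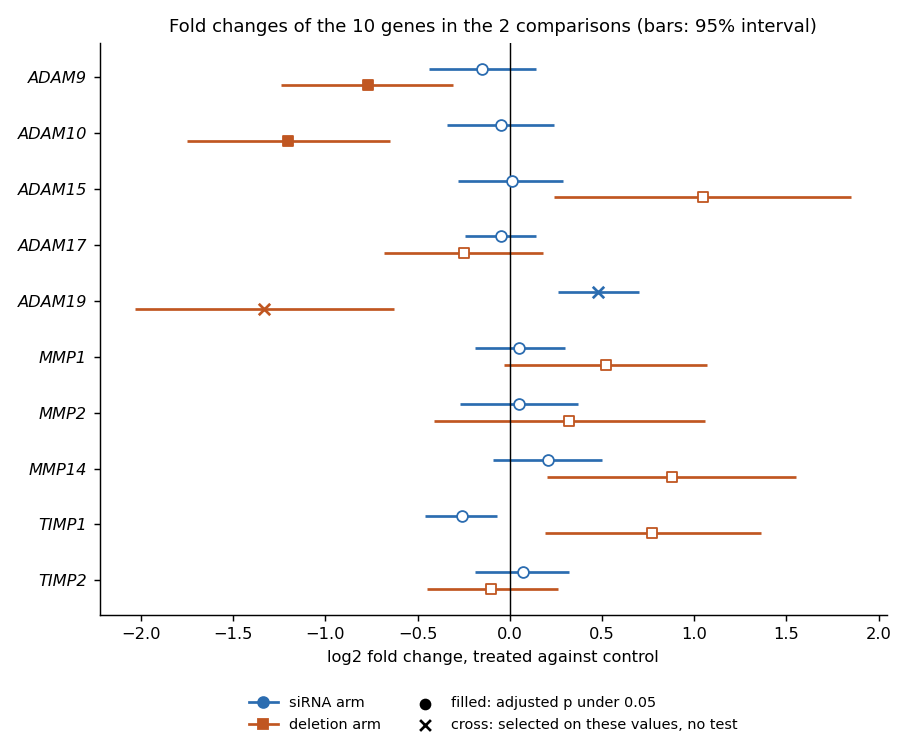
Log2 fold change of treated against control (horizontal axis) for the 10 genes, with the siRNA arm as circles and the deletion arm as squares. Bars are 95% intervals from the deposited SE and the normal distribution, and would be wider with Student's t distribution. Filled symbols have an adjusted p-value under 0.05, and crosses mark ADAM19, which was selected on these values. The bars of ADAM19 do not allow for that selection. ADAM9 and ADAM10 are the filled squares, at -0.77 and -1.20.

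ADAM10 fell after deletion of the enhancer, to 43.5% of its control, while its interval under siRNA included no change. The gene maps to chr15:58588807-58749978 (GRCh38, minus strand). In the deletion arm its implied mean was 733 normalised counts in the controls and 319 in the deleted cells. The authors' deposited table gave a log2 fold change of -1.20 (SE 0.28), or 43.5% of control with a 95% interval from 29.7% to 63.6%, and an adjusted p-value of 0.000939. A Wald statistic at least as low, the fold change divided by its SE, was found in 186 genes of that table, ADAM10 included. Under siRNA the implied means were 432 and 417, and the authors' deposited table gave -0.05 (SE 0.15; adjusted p-value 0.977), with an interval from -0.34 to 0.24. ADAM10 thus passed the test in the deletion arm alone, and the difference between the arms is tested further on. Its deletion call was lost when Student's t distribution (4 degrees of freedom) replaced the normal (adjusted p-value 0.357) and when the Wald statistics were divided by their robust SD of 1.88 (0.976), as were all calls of the deletion arm under both. The last exon of ADAM10 overlaps AC018904.1, an antisense gene, and whether counting used the strand is not given in the sources used here.

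ADAM9, a widely expressed ADAM that sheds growth factor precursors and adhesion molecules, also fell after deletion. Its implied mean was 911 normalised counts in the controls and 533 in the deleted cells. The authors' deposited table put it at 58.5% of control (42.4% to 80.8%), a log2 fold change of -0.77 (SE 0.24) with an adjusted p-value of 0.0144, and 564 genes had a Wald statistic as low. Under siRNA, where the implied means were 715 and 643, the authors' deposited table gave -0.15 (SE 0.15; adjusted p-value 0.820). Fold changes of the deletion arm followed GC content, as described below. The last 500 bases of the ADAM9 transcript with the longest 3' UTR have a GC content of 33.6%. That transcript ends at position 39016019, while the gene runs to 39105144 (GRCh38, plus strand). In the transcript with the longest coding part the value is 25.6%. With the GC trend of the longest 3' UTR version removed, ADAM9 had a value of -0.55 and was not called (adjusted p-value 0.107). With that of the longest coding part removed it was at -0.40 (0.273).

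ADAM17, the TNF-converting enzyme, was not called in either arm. This gene maps to chr2:9488486-9556732 (GRCh38, minus strand). Its implied means were 587 and 568 normalised counts under siRNA, and 694 and 585 after deletion. In the authors' deposited tables it was at 96.7% of control under siRNA (84.8% to 110%; adjusted p-value 0.958) and at 84.3% after deletion (62.5% to 114%; 0.476). Its last exon overlaps IAH1 on the other strand. ADAM10 and ADAM17, the main endothelial sheddases, thus had deletion intervals of -1.75 to -0.65 and of -0.68 to 0.18, which overlap only at their ends. The difference between these genes was not tested.

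ADAM15, an ADAM that also carries an integrin-binding motif, had the highest fold change of the 10 genes after deletion, and the widest interval. It maps to chr1:155050566-155062775 (GRCh38, plus strand). After deletion its implied mean was 1357 normalised counts, against 657 in the controls. The authors' deposited table gave 207% of control (118% to 361%), a log2 fold change of 1.05 (SE 0.41), with an adjusted p-value of 0.0609, which misses the threshold. The SE was 1.70 times the running median of genes with a like mean count. Under siRNA the implied means were 1584 and 1590, and the authors' deposited table gave 0.01 (SE 0.14; adjusted p-value 0.997). That SE was 1.45 times the running median. ADAM15 has the most GC-rich transcript end of the 10 genes, with 66.0%, and with the GC trend removed its deletion fold change was 0.37.

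ADAM19, a membrane ADAM best known for its part in heart development and for shedding neuregulins, is described only. It maps to chr5:157395534-157575775 (GRCh38, minus strand). Its implied mean was 226 normalised counts with scrambled siRNA and 316 with CALCRL siRNA, and it was 356 in the deletion controls and 142 in the deleted cells. The authors' deposited table put it at 140% of control under siRNA, a log2 fold change of 0.48 (SE 0.11). For the deletion, the authors' deposited table gave 39.8% of control, a log2 fold change of -1.33 (SE 0.36). The siRNA value minus the deletion value was 1.81 (SE 0.37). These SEs do not allow for the choice of ADAM19 by its values, so they cannot show that either change is real. After removal of the GC trend ADAM19 was at -1.25 after deletion, or at -1.43 and -1.52 in the other versions of that trend. Of the other members, MMP14 had the next highest siRNA value and ADAM10 the next lowest deletion value.

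Of the 10891 genes tested in both tables, 47 were called in both, beside 3.46% of all genes called under siRNA and 15.8% after deletion. Among the 47, 10 were higher under siRNA and lower after deletion, and 13 were the other way. Whether these counts exceed those of unrelated calls was not tested. The 5 genes closest to ADAM19 in the plane of the 2 fold changes, by straight distance in log2 units, are named as a description over 2 comparisons. INO80C, a subunit of the INO80 chromatin remodeller, was closest, at a distance of 0.26, with 0.50 under siRNA and -1.59 after deletion in the authors' deposited tables. SLC39A6, a zinc transporter, lay at 0.30, with 0.47 and -1.02 in the authors' deposited tables. The chemokine CXCL1 lay at 0.35, with 0.66 and -1.63 there. LZTFL1, which acts in ciliary trafficking, lay at 0.48, and RFK, riboflavin kinase, at 0.49.

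**Figure D2:**
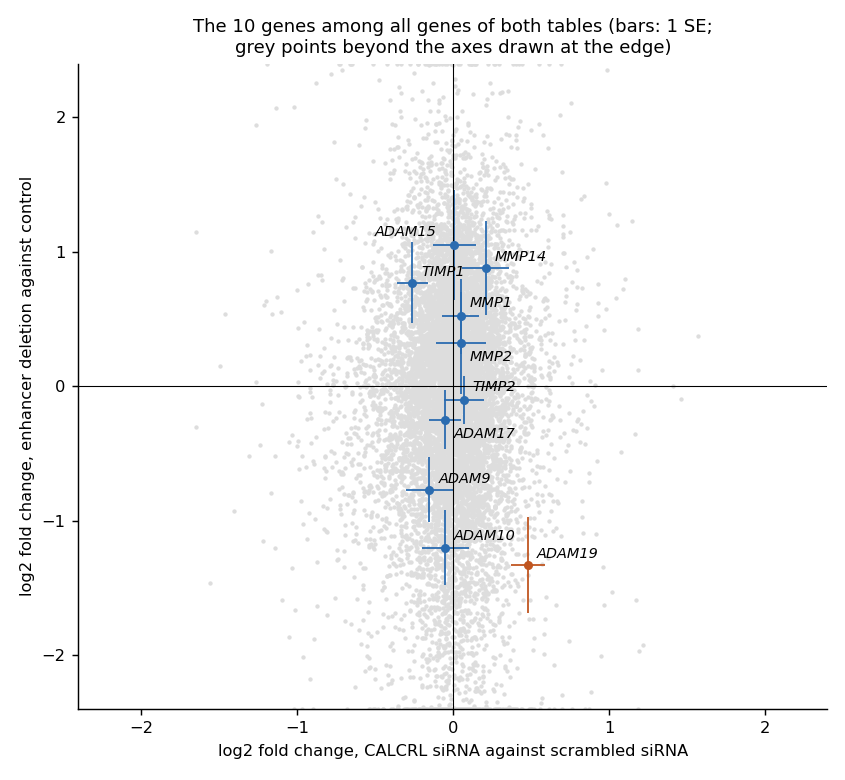
Log2 fold change under siRNA (horizontal axis) against that after enhancer deletion (vertical axis), with the 10 genes labelled, bars of 1 SE and all genes of both tables in grey. ADAM19, in orange, stands at 0.48 and -1.33, while the other 9 genes lie between -0.26 and 0.21 on the horizontal axis.

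The 3 matrix metalloproteases were not called in either arm by the DESeq2 Wald test, and only MMP14 after deletion had an unadjusted p-value under 0.05. All 6 of their fold changes were above 0, although MMP1 (SE 0.12) and MMP2 (SE 0.16) were at only 0.05 under siRNA. Of all genes tested, 5693 of 11261 were above 0 under siRNA and 5952 of 11830 after deletion, so these signs are a description only. The 6 fold changes stayed above 0 after centring on the median and in the 3 versions of the GC trend removed. The other alternatives leave the fold change as deposited, so they could not change its sign. MMP14, a membrane-bound MMP that activates the precursor of MMP2, maps to chr14:22836557-22849027 (GRCh38, plus strand). Its implied mean was 1352 normalised counts with scrambled siRNA and 1563 with CALCRL siRNA, and 1067 and 1957 in the controls and deleted cells. In the authors' deposited tables it was at 116% of control under siRNA (94.2% to 142%; adjusted p-value 0.689) and at 183% after deletion (115% to 294%; 0.0633). The deletion interval of MMP14, drawn from the normal distribution, thus lay above 100%, but the adjusted p-value missed the threshold. With Student's t distribution only 2 of the 9 members kept an unadjusted p-value under 0.05 after deletion. MMP14, ADAM15 and TIMP1 were not among them, so that their intervals above 100% rest on the normal reference. With the GC trend removed its deletion fold change was 0.53 in place of 0.88.

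MMP1, the interstitial collagenase, maps to chr11:102789920-102798160 (GRCh38, minus strand). Its implied means were 267 and 277 normalised counts under siRNA, and 330 and 474 after deletion. The authors' deposited tables put it at 104% of control under siRNA (87.6% to 123%; adjusted p-value 0.967) and at 143% after deletion (98.2% to 209%; 0.194). MMP1 is GC-poor at its transcript end, with 36.8%, and its deletion fold change was 0.71 with the GC trend removed, against 0.52 as deposited. Its last exon overlaps the pseudogene WTAPP1 on the other strand.

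MMP2, the gelatinase that cuts basement membrane collagen, maps to chr16:55389700-55506691 (GRCh38, plus strand). Its implied means were 224 and 232 under siRNA, and 206 and 257 after deletion. In the authors' deposited tables its log2 fold change was 0.05 (SE 0.16; adjusted p-value 0.979) under siRNA and 0.32 (SE 0.38; 0.607) after deletion. The deletion interval of MMP2 ran from 75.0% to 208% of control, the widest log2 interval of the 3 MMPs. With the GC trend of the whole transcript removed its deletion fold change was 0.09.

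TIMP1 and TIMP2, the inhibitors, were not called in either arm, and the difference between these genes was not tested. TIMP1 maps to chrX:47582313-47586789 (GRCh38, plus strand), within a span where its last exon overlaps SYN1 on the other strand. Its implied mean was 984 normalised counts with scrambled siRNA and 820 with CALCRL siRNA, and 982 and 1679 in the controls and deleted cells. Under siRNA the authors' deposited table put TIMP1 at 83.3% of control (72.7% to 95.4%), with a p-value of 0.00849 by the DESeq2 Wald test before adjustment and 0.148 after it. After deletion the authors' deposited table gave 171% of control (114% to 256%), with 0.00920 before adjustment and 0.0554 after it. When genes with a mean under 20 counts were left out of the adjustment, the deletion value of TIMP1 had an adjusted p-value of 0.0493. The other alternatives went the other way. The adjusted p-value was 0.0748 after centring on the median and 0.381 with the GC trend of the last 500 bases removed. It was 0.357 with Student's t distribution and 0.976 after division by the robust SD.

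TIMP2, which both inhibits MMPs and helps MMP14 to activate MMP2, maps to chr17:78852977-78925387 (GRCh38, minus strand). Its implied means were 720 and 753 normalised counts under siRNA, and 710 and 664 after deletion. The authors' deposited tables gave 0.07 (SE 0.13; adjusted p-value 0.957) under siRNA and -0.10 (SE 0.18; 0.763) after deletion. The deletion SE of TIMP2 was 0.71 times the running median of genes with a like mean count, the lowest such ratio of the 10 genes. With the GC trend of the last 500 bases removed its deletion value was 0.07, and with that of the whole transcript removed it was -0.20.

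**Figure D3:**
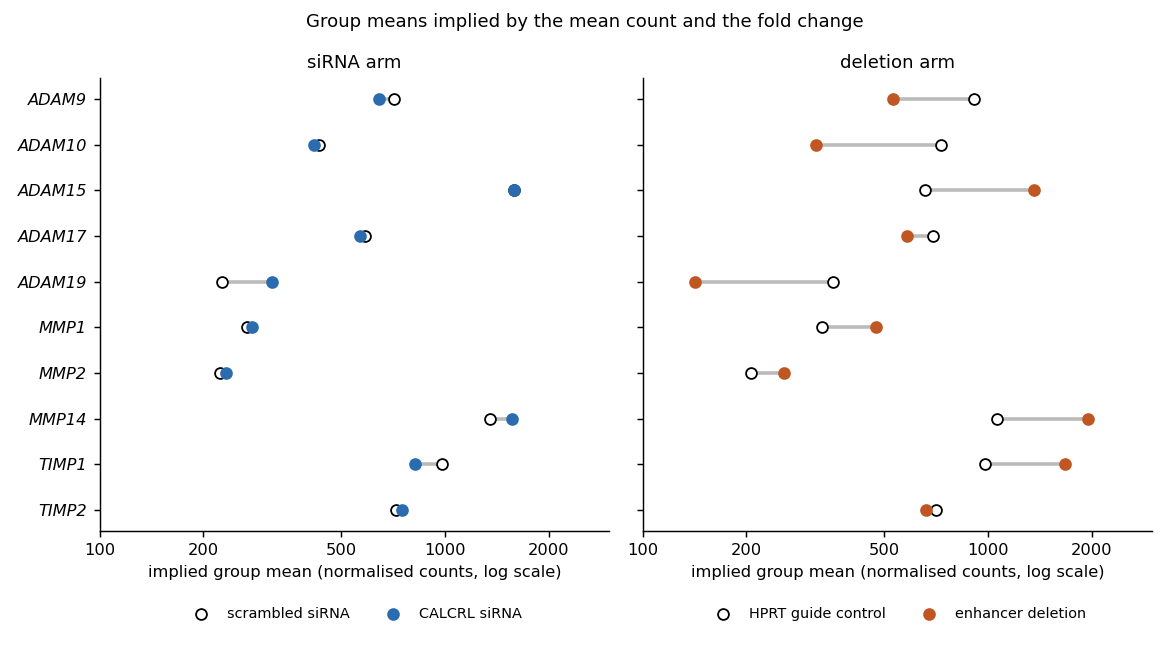
Implied group means of the 10 genes in normalised counts on a log axis, with controls as open circles and treated cells as filled circles, for the siRNA arm (left) and the deletion arm (right). No spread is drawn because the tables hold none per group; the right-hand pairs of ADAM10 (733 and 319) and ADAM19 (356 and 142) are the farthest apart among those that are lower.

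For each gene, the arms were compared by the siRNA log2 fold change minus the deletion log2 fold change, with the SEs combined, a normal reference and adjustment over the 10891 genes tested in both tables. The arms share no libraries. At an adjusted p-value under 0.05, 13.7% of all genes and 2 of the 9 tested members differed. ADAM10 differed by 1.15 (SE 0.32, interval 0.53 to 1.77; adjusted p-value 0.00693) with a value near 0 under siRNA and a call after deletion. TIMP1 differed by -1.04 (SE 0.31, interval -1.65 to -0.42; adjusted p-value 0.0150), its value being below 0 under siRNA and above 0 after deletion. With the GC trend removed, the difference was 0.97 for ADAM10 (adjusted p-value 0.0275) and -0.70 for TIMP1 (0.130), so that TIMP1 was no longer called. Both were lost under the Student t reference (0.386 for each).

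For the other 7 the difference was not called. ADAM9 differed by 0.62 (SE 0.28), with an interval from 0.07 to 1.17 and an adjusted p-value of 0.116, so its fall after deletion is not shown to differ from its value under siRNA. ADAM15 differed by -1.04 (SE 0.44; adjusted p-value 0.0866), MMP14 by -0.67 (SE 0.38; 0.230) and MMP1 by -0.47 (SE 0.31; 0.309). MMP2, ADAM17 and TIMP2 had adjusted p-values from 0.621 to 0.703. Arm, time after treatment and delivery changed together, so their parts in these differences cannot be told apart.

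Fold changes of the deletion arm rose with the GC content of the last 500 bases of the transcript, the stretch that a 3' kit reads. In the tenth of genes with the lowest GC content (22.2% to 30.4%) the median log2 fold change was -0.27, and in that with the highest (58.4% to 76.8%) it was 0.60. Under siRNA the medians of the 10 such groups lay between -0.03 and 0.03. The members followed this order in part. ADAM15 (66.0%), TIMP1 (55.2%) and MMP14 (54.6%) had the highest GC content and the highest deletion values of the 10 genes. ADAM9 (33.6%), ADAM10 (37.2%) and ADAM17 (37.8%) had values below 0, but MMP1 (36.8%) was above 0. In the transcripts with the longest coding part, the GC content was 25.6% for ADAM9 and 32.6% for ADAM17. ADAM19 (42.2%) was chosen by its values, so its place in this order is not read. Removing the trend, by a smooth curve of fold change on GC content, left ADAM10 called at -1.01 (adjusted p-value 0.00681). It lowered the value of ADAM15 from 1.05 to 0.37 and that of TIMP1 from 0.77 to 0.41. The part of GC content in these fold changes was not tested further.

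**Figure D4:**
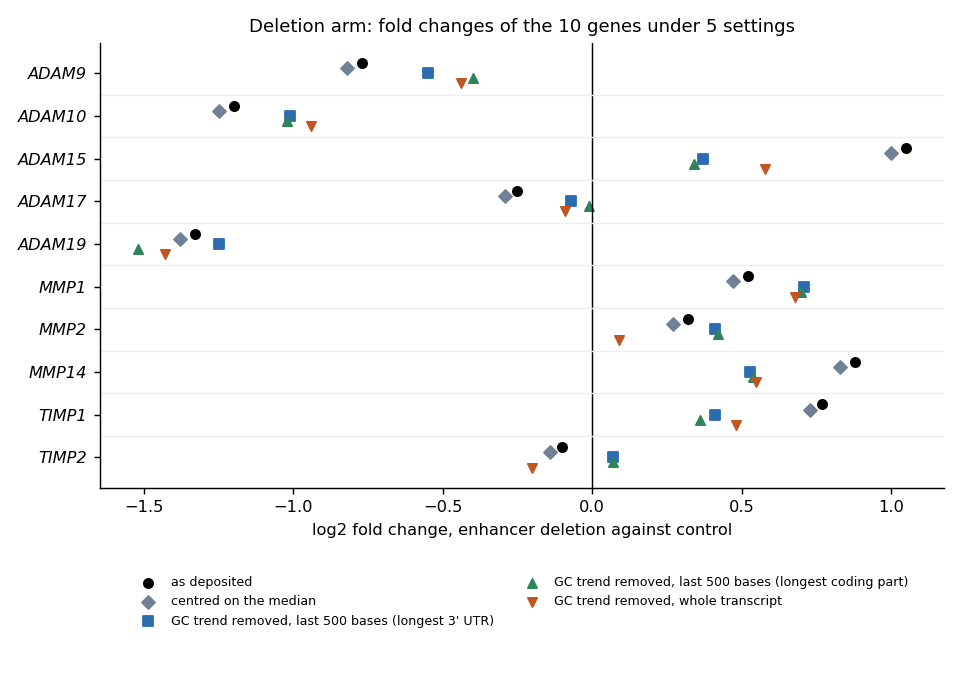
Log2 fold change of the 10 genes in the deletion arm (horizontal axis) as deposited, centred on the median of genes with a mean of at least 100 counts, and with the GC trend removed in 3 versions. ADAM10 stays between -1.25 and -0.94 under these settings, while ADAM15 runs from 0.34 to 1.05.

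The wider family was read from 4 lists, of which 56 of 91 genes were tested in each arm. Of the 56, 5 (8.93%) were called under siRNA, all higher, and 10 (17.9%) after deletion, 1 higher and 9 lower. These lists were drawn up with earlier results of these data known. The shares stand beside 3.46% and 15.8% over all genes.

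Of 21 other ADAM and ADAMTS proteases 9 were tested. Under siRNA 2 of them rose, both secreted ADAMTS proteases that cut proteoglycans of the matrix. ADAMTS9 had an implied mean of 266 normalised counts with scrambled siRNA and 425 with CALCRL siRNA, and the authors' deposited table gave 0.68 (SE 0.10; adjusted p-value 1.37e-09). ADAMTS4 had 196 and 358, and the authors' deposited table gave 0.87 (SE 0.13; adjusted p-value 9.31e-09). The median over the 9 was 0.30. After deletion ADAMTS1, another proteoglycan-cutting member, fell by 0.74 in the authors' deposited table (SE 0.26; adjusted p-value 0.0355), and the median of the 9 was -0.37. ADAMTS4 was at -0.65 after deletion (SE 0.30; 0.125 after adjustment) in the authors' deposited table, and its difference between the arms, 1.52 (SE 0.33), was called (0.000422). For the other genes named here it was not: ADAMTS9 had values above 0 in both arms (0.48 after deletion; 0.803 for the difference), and ADAMTS1 values below 0 in both (-0.49 under siRNA; 0.625). ADAMTS1 was not called with the GC trend removed (0.185).

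Of 18 other MMPs and MMP inhibitors 7 were tested, and TIMP3 and TIMP4 were not listed in either arm. None of the 7 was called under siRNA by the DESeq2 Wald test, and 0 had an unadjusted p-value under 0.05. Their median was 0.31. After deletion 2 were called, both lower. MMP16, a membrane-bound MMP, fell by 0.81 in the authors' deposited table (SE 0.30; adjusted p-value 0.0454), and it was not called with the GC trend removed (0.171). Its difference between the arms was not called (0.0547). MMP11, stromelysin-3, had an implied mean of 23.2 normalised counts in the controls and 2.21 in the deleted cells, so that no fold is given; the upper end of its interval in the authors' deposited table was 49.2% of control (adjusted p-value 0.0374). RECK, a membrane-anchored MMP inhibitor, had values of -0.39 (SE 0.21) and -0.38 (SE 0.44) in the authors' deposited tables and was not called in either.

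Of 18 genes of protease maturation and trafficking 15 were tested. Under siRNA none was called by the DESeq2 Wald test, and 4 had an unadjusted p-value under 0.05. FURIN, the convertase that cuts ADAM and MMP precursors, was among these 4, at 0.29 (SE 0.11; 0.182 after adjustment) in the authors' deposited table. After deletion 2 fell. PCSK5, another proprotein convertase, fell by 1.75 in the authors' deposited table (SE 0.42; adjusted p-value 0.00119), and its difference between the arms, 2.14 (SE 0.46), was called (0.000353). CD9, a tetraspanin that binds ADAM17 at the membrane, fell by 3.67 (SE 0.94; 0.00292 after adjustment) in the authors' deposited table, and its difference between the arms was called (0.00918). The SE of CD9 was 3.94 times the running median of genes with a like mean count after deletion and 5.62 times under siRNA, so its libraries spread more than those of such genes. None of the listed tetraspanins that carry ADAM10 (TSPAN5, TSPAN14, TSPAN15 and TSPAN17) was called in either arm by the DESeq2 Wald test, although TSPAN14 under siRNA and TSPAN15 and TSPAN17 after deletion had an unadjusted p-value under 0.05. Of RHBDF1, RHBDF2 and FRMD8, the partners of ADAM17, none was called, and RHBDF1 had an unadjusted p-value under 0.05 after deletion.

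Of 34 substrates of shedding 25 were tested. Under siRNA 3 rose. JAG1, a Notch ligand, rose by 0.92 in the authors' deposited table (SE 0.17; 4.46e-06 after adjustment). MET, the receptor of hepatocyte growth factor, rose by 0.77 in the authors' deposited table (SE 0.14; 1.49e-05 after adjustment). HBEGF, an epidermal growth factor receptor ligand released by ADAM17, rose by 0.51 in the authors' deposited table (SE 0.14; 0.0152 after adjustment). The difference between the arms was called for JAG1, 1.48 (SE 0.34; adjusted p-value 0.000947), and not for MET (0.0540) or HBEGF (0.640). All 5 siRNA calls of the 4 lists were lost under the Student t reference.

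After deletion 4 substrates fell and 1 rose. CDH5, VE-cadherin of the endothelial junction and a substrate of ADAM10, fell by 1.44 (SE 0.35; 0.00142 after adjustment) in the authors' deposited table. KDR, the main VEGF receptor, fell by 1.05 (SE 0.31; 0.00966 after adjustment) in the authors' deposited table. SDC1, a syndecan of the glycocalyx, fell by 1.29 (SE 0.42; adjusted p-value 0.0224), and F11R, a junctional adhesion molecule, fell by 0.90 (SE 0.33; 0.0403 after adjustment) in the authors' deposited table. AXL, a receptor tyrosine kinase shed by ADAM10 and ADAM17, rose by 0.69 (SE 0.25; 0.0438 after adjustment) in the authors' deposited table; it lies outside the naming rule and was chosen after its value was seen. AXL was not called after centring on the median or removal of the GC trend. CDH5 differed between the arms, by 1.45 (SE 0.36; adjusted p-value 0.00305), as did SDC1 (0.0183) and F11R (0.0185), while the difference was not called for KDR (0.107) or AXL (0.102).

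**Figure D5:**
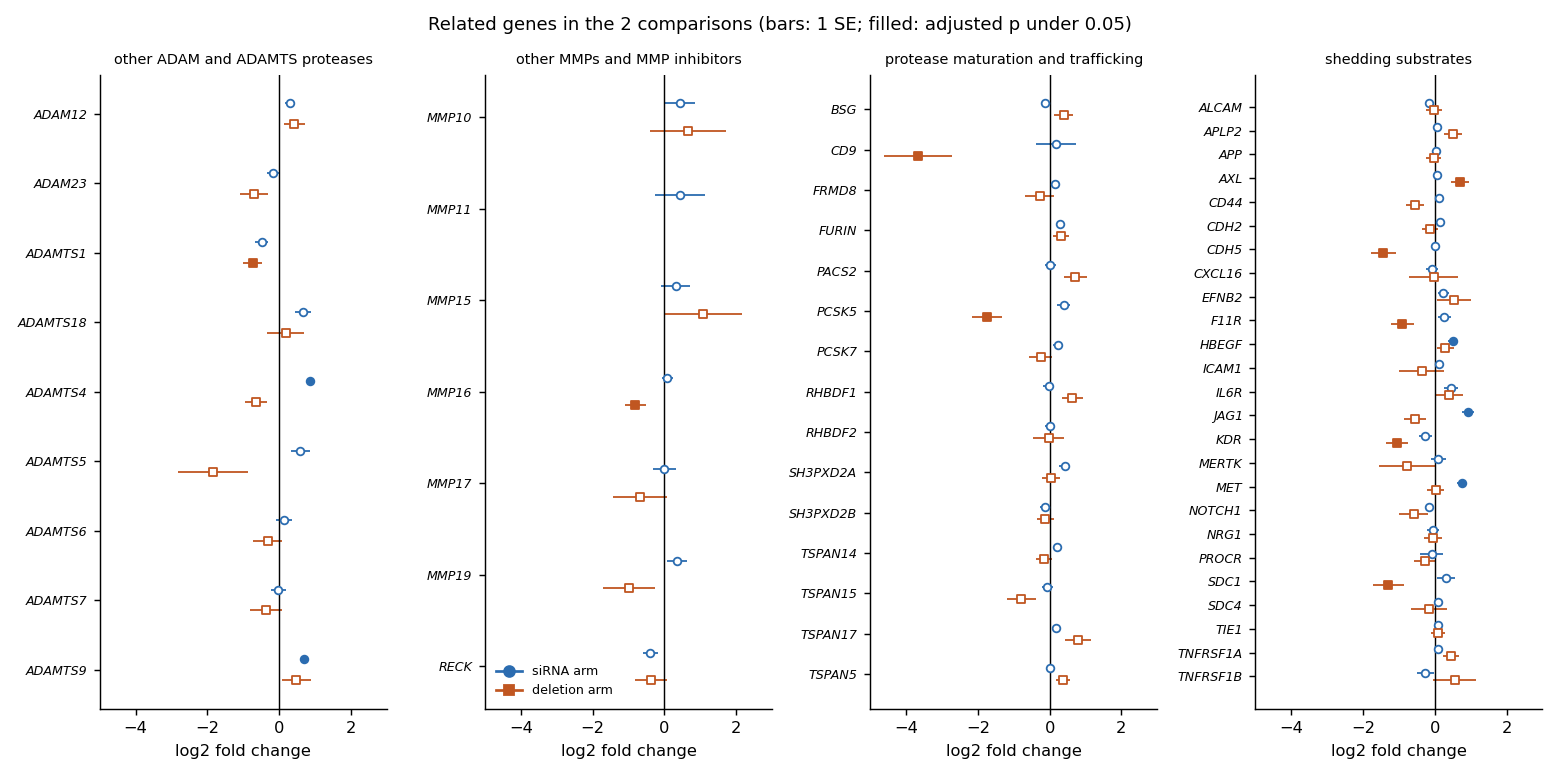
Log2 fold changes of the tested genes of 4 lists (panels) in the siRNA arm (circles) and the deletion arm (squares), with bars of 1 SE and filled symbols at an adjusted p-value under 0.05. MMP11 after deletion is left out because its lower mean was 2.21 normalised counts; CD9 at -3.67 is the lowest value drawn.

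CDH5 and KDR are also endothelial markers. Of the 9 listed endothelial markers, 4 had values above 0 after deletion and 5 below 0. Their median was -0.47, against 0.00 over all genes. The values above 0 ran from 0.05 for EGFL7 to 0.54 for VWF (SE 1.14). Those below 0 ran from -1.44 for CDH5 to -0.47 for ERG. Of the 9, CDH5 and KDR were called lower, against 8.44% of all genes. The implied means summed to 6671 normalised counts in the deletion controls and 4752 in the deleted cells, a sum with no test that rested mostly on CDH5 (1375 and 508) and ESAM (1507 and 901). ESAM, an adhesion molecule of endothelial junctions, was not called. Under siRNA the sums were 7265 and 6978, and EGFL7 was called lower, at -0.46 in the authors' deposited table. KRT18, a keratin of simple epithelia, rose by 1.13 (SE 0.30; adjusted p-value 0.00425) after deletion in the authors' deposited table, and the sums of the 3 listed leukocyte and epithelial markers were 3924 and 6933. These sums, with no test, rested almost wholly on KRT18 (1874 and 4097) and KRT19 (2043 and 2818). CD68, the only listed leukocyte marker, was at 7.01 and 17.7, and neither it nor KRT19 was called. The defining markers PTPRC, EPCAM and CDH1 were among the genes not listed. ACTA2 and TAGLN summed to 222 and 204 after deletion, with neither called. The part of these shifts in the values of ADAM9, ADAM10, CDH5 and KDR was not tested.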

How the data were processed

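The 14 libraries came from a QuantSeq 3' kit, per the labels' protocols, and were grouped by sample title. The authors deposited 1 table per arm, which per the file names and headers came from featureCounts and DESeq2. The submitters' processing notes name hg19 and edgeR 3.24.3, with no role. The deposited values are mean normalised counts, log2 fold changes, SEs, Wald scores, p-values and adjusted p-values, written with decimal commas. Aligner, filters and strand setting are not given in the sources used here. The deposited Wald score equalled the fold change divided by its SE, to within 5.5e-14, and Benjamini-Hochberg adjustment of the p-values gave the deposited adjusted ones. For 5 genes of the deletion table there was no p-value.

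From these values, 95% intervals (normal quantile), implied group means and the difference between the arms were computed in Python 3.11.15 with scipy 1.17.1. The calling of genes, the GC trend removal and the difference were checked on simulated fold changes, drawn with normal noise of the deposited SE. That check cannot show whether these SEs and the normal reference suit the data. Alternatives used a Student t reference, division by the robust SD, centring, a minimum mean of 20, a threshold of 0.1, and removal of a GC trend (lowess of span 0.3, statsmodels 0.14.6). Each SE was set against the running median SE of 201 genes of like mean count. Positions, transcripts and GC content came from GENCODE 29 on GRCh38, matched by gene ID for 11099 and 11630 genes; this build differs from hg19, and positions are for orientation.

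The members and lists were chosen with earlier results of these data known. The genes named are the 10 members, CALCRL, the called genes of each wider list (at most 4 per list and arm, by adjusted p-value) and the 5 genes nearest to ADAM19 among those called in both arms. RECK, FURIN, AXL, the tetraspanins and the partners of ADAM17 were added for their roles or values.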

Additional observations from a re-analysis of the deposited data

Results flagged for a closer look

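For 2 members the siRNA and deletion effects differed by the test of the difference itself. ADAM10 had a siRNA minus deletion log2 fold change of 1.15 (adjusted p-value 0.00693), with -0.05 under siRNA and -1.20 after deletion. TIMP1 had one of -1.04 (adjusted p-value 0.0150), with -0.26 under siRNA and 0.77 after deletion. Over their alternatives the adjusted p-values ran from 0.00481 to 0.992 for ADAM10 and from 0.0136 to 0.992 for TIMP1.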

How the results depend on the processing

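No paired analysis was possible because per-library values were not at hand, so the replicate block, leaving out each replicate, other normalisations of counts and a count model were not run. Without ADAM19, which has no test, of 327 alternative values of 41 single-gene results 271 kept their direction and their side of the threshold, 45 lost the call, 5 gained one and 6 changed sign. The 271 include results that were not called as deposited and stayed so, and a threshold of 0.1 could not lose a call. Of the 45 lost calls, 18 came under the Student t reference, which left none of the 41 results called. Division by the robust SD lost 14. Under the Student t reference 5 genes were called under siRNA (774 at an unadjusted p under 0.05), and 0 of the wider lists (9). After deletion it left 0 genes (1646), 0 of the 9 members (2) and 0 of the wider lists (7), and for the difference 0 genes (1386) and 0 members (2). Division by the robust SD left 0 genes after deletion (534), 0 members (1) and 0 of the wider lists (3), and for the difference 0 genes (447) and 0 members (1). Removing the GC trend left 1 member called after deletion, ADAM10, and 1 for the difference in each of its 3 versions. Of all genes, the 2 versions of the last 500 bases left 1440 (longest 3' UTR) and 1446 (longest coding part) called after deletion. For the difference they left 1206 and 1213. The version over the whole transcript left 1544 after deletion and 1259 for the difference, and 6 genes of the wider lists after deletion. At a threshold of 0.1, 5 of the 9 members were called after deletion, as were 2714 of all 11830 genes. At that threshold 2284 of 10891 genes differed between the arms. The changes of sign came with the GC trend removed: ADAM15 under siRNA was at -0.01, -0.007 and -0.02, TIMP2 after deletion at 0.07 in both versions of the last 500 bases, and ADAM17 differed by -0.02. All of these lie near 0. The versions over the whole transcript and over the transcript with the longest coding part were chosen after seeing the data. Over alternatives the adjusted p-value after deletion ran from 0.00901 to 0.976 for ADAM9 and from 0.000501 to 0.976 for ADAM10. HBEGF had 0.0534 under siRNA with the robust SD. MMP11 has no value under a minimum mean of 20 counts. The cause of these changes was not tested. With no value per library, depth, outlying libraries and duplicates could not be examined.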
